A study of Rattus norvegicus with 9 samples.

Results

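Single-cell libraries from the tibial osteotomy site of rats collected at 4 h were compared with libraries collected at 0 h or 24 h. Of the 9 samples of the series, 8 entered the comparison by the hour in their label, and TO_2d_24h was not analysed here. The 4 h group held TO_2d_4h, TO_4d_4h, TOE_2d_4h and TOE_4d_4h. The other group held TO_2d_0h, TO_4d_24h, TOE_2d_24h and TOE_4d_24h. All animals were male Sprague-Dawley rats, 6 to 8 weeks old according to the surgical methods. All carried a circular osteotomy of the tibia and a full-thickness skin wound on the dorsal foot. TO rats received nothing further. TOE rats also received radial extracorporeal shock waves at the osteotomy, on day 2 or on days 2 and 4, and the hour counts from the session. Thus each group held 2 TO and 2 TOE libraries and 2 libraries of each session day, so arm and session day were balanced between the hours. Time since injury was not, since a 24 h library was collected later after the osteotomy than the 4 h library of its session day. TO_2d_0h was the only library at 0 h. The number of rats in a library, the clock time of collection and the processing batch are not given in the sources used here. Hour, time of day and any batch shared by the 4 h libraries therefore cannot be told apart, and p-values measure the spread between libraries, which may be partly technical.

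Bone marrow makes most blood cells, among them the B-cell precursors, neutrophils and monocytes that filled these libraries, and releases leukocytes into blood in a daily rhythm. In the molecular clock, the activators Bmal1 and Clock switch on their own repressors, the Per, Cry and Nr1d genes, together with output genes such as Dbp. Marrow cells also respond within hours to handling, injury and temperature, through heat shock chaperones, cold-inducible RNA-binding proteins, immediate-early transcription factors and interferon-stimulated genes.

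UMIs, the barcoded molecules counted by the 10x Genomics 3′ assay, totalled between 95954800 and 144146202 per library over 12451 to 17187 barcodes. Any pair of libraries shared 40 to 73 barcode sequences, apart from TOE_2d_4h and TOE_4d_4h, which shared 110. Cells were clustered together and named from marker genes, and UMIs were summed per library and class. Of the cells kept, 49.6% to 66.1% were B-cell-like, 8.31% to 26.7% neutrophil-like and 5.47% to 17.9% monocyte-like. Cells in clusters that could not be named were 15.6% of TO_2d_4h and 3.45% to 8.74% of each other library. Of these, 1 cluster of 2093 cells came to 95.1% from TO_2d_4h and was led by Col1a1, Col1a2, Sparc and haemoglobin genes, and its part in the results was not tested. The unit of level is CPM, a gene's UMIs for every 1000000 UMIs summed over its class in a library. They were not corrected for gene length. Values are listed in the order TO day 2, TO day 4, TOE day 2 and TOE day 4 for both groups, so the order of the 0 h or 24 h libraries is TO_2d_0h, TO_4d_24h, TOE_2d_24h and TOE_4d_24h.

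Cells of the same class fell into different clusters by hour. The B-cell-like class consisted of 11 clusters, of which 3 took over 90% of their cells from the 4 h libraries and 3 took under 10%. The 4 h clusters held 83.7%, 69.0%, 42.9% and 77.9% of the B-cell-like cells in the 4 h libraries, against 2.30%, 4.55%, 0.846% and 1.05% in the others. The clusters of the opposite kind held 66.3%, 80.7% and 80.3% of these cells in TO_2d_0h, TO_4d_24h and TOE_2d_24h. TOE_4d_24h stood apart, with 2.90% in those clusters and 96.1% in clusters of neither kind. TOE_2d_4h had 56.2% in clusters of neither kind, against 15.2% to 30.2% in the other 4 h libraries. The largest of these clusters held 3893 cells of TOE_4d_24h, 2657 of TOE_2d_4h and 340 to 1243 of each other library. Monocyte-like cells repeated this split over 3 clusters, with 47.8% to 69.9% of the 4 h cells in a 4 h cluster and 94.5% of TOE_4d_24h in neither kind. Of 5 neutrophil-like clusters, none was a 4 h cluster, and 1 took 9.24% of its cells from 4 h. That cluster held 20.3% of the neutrophil-like cells of TO_2d_0h and 0.0439% to 0.994% of those of each other library. The clusters were built from the same genes, so this is a description without a test. Results below are from all 8 libraries, and the calls in most gene lists are also given without TOE_4d_24h. That library was picked after its values were seen, and leaving it out gave the most calls in the 3 largest classes. Values without it are a description and not a further test.

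**Figure D1:**
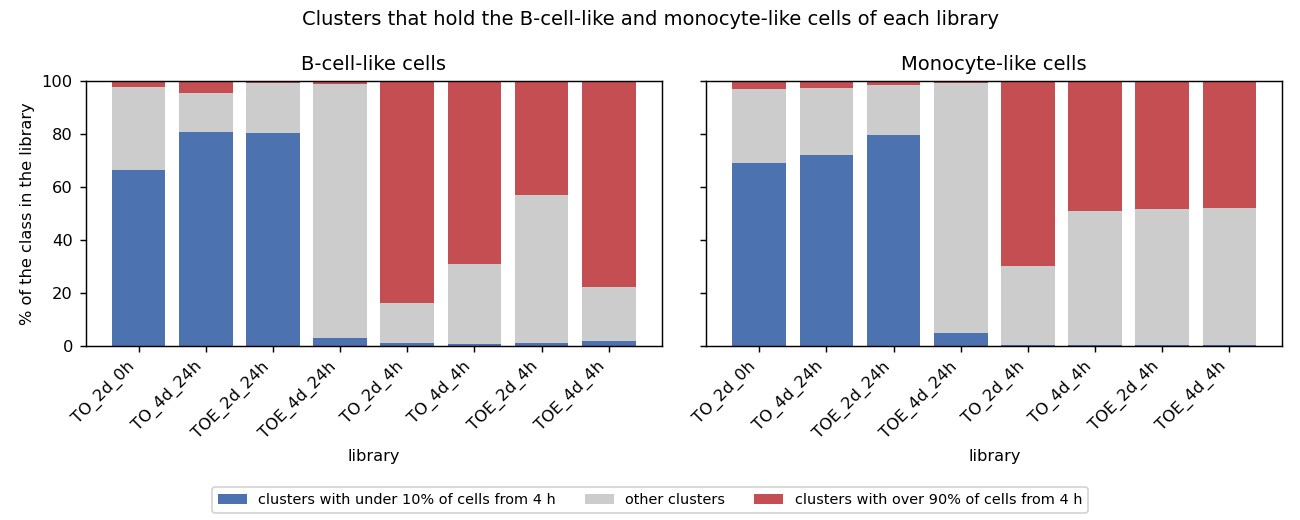
Share of the B-cell-like and monocyte-like cells of each library (y axis, % of the class) that lay in clusters with over 90% of cells from 4 h, under 10%, or in between. The red clusters hold 42.9% to 83.7% of B-cell-like cells at 4 h. TOE_4d_24h lies 96.1% in the grey clusters and TOE_2d_4h 56.2%.

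Transcript levels were tested gene by gene with edgeR's quasi-likelihood test, 4 libraries against 4, with Benjamini-Hochberg adjustment over all genes of a class. In B-cell-like cells 1646 of 17630 genes were higher at 4 h (9.34%) and 1920 lower (10.9%). Neutrophil-like cells had 559 of 13376 genes higher (4.18%) and 745 lower (5.57%), and monocyte-like cells 971 of 14390 higher (6.75%) and 861 lower (5.98%). These shares are the background for every gene list below. Of the called genes, 3102 of 3566 in B-cell-like, 1142 of 1304 in neutrophil-like and 1696 of 1832 in monocyte-like cells did not overlap between the groups. Separate groups were thus usual among called genes. The share of genes called in either direction was 20.5% in granulocyte-monocyte progenitor-like cells, 15.5% in T/NK-cell-like, 9.34% in dendritic-cell-like, 9.14% in mast-cell/basophil-like, 5.96% in mesenchymal-like and 5.19% in erythroid-like cells. Leaving out 1 library moved these calls from 2288 to between 1431 and 2648, from 1385 to between 716 and 1891, from 1158 to between 315 and 2561, from 721 to between 303 and 977, from 740 to between 16 and 638 and from 622 to between 31 and 2125 in the same order. With all cells of a library summed, 7.55% of 20810 genes were called, 636 higher and 936 lower. Those 1572 calls fell to 417 with arm and day as additive terms and to 17 with the arm-day pair as a block, and ranged from 339 without TO_4d_4h to 3995 without TOE_4d_24h. Leaving out TOE_4d_24h raised the calls from 3566 to 6442 in B-cell-like, from 1304 to 2612 in neutrophil-like and from 1832 to 3521 in monocyte-like cells. In that comparison of 4 libraries against 3, 17.5% of genes were higher and 18.4% lower in B-cell-like, 8.89% and 10.4% in neutrophil-like and 12.4% and 11.5% in monocyte-like cells, and list counts without TOE_4d_24h are to be read against these shares. Leaving out any other library left between 1704 and 3497, between 538 and 883, and between 727 and 1147 calls. With each 4 h library paired with that of the same arm and day, calls given below were lost for Col1a1, Gsk3b, Hyou1, Nupr1, Oasl2, Pcna, Chordc1, Ero1a and H3f3b in B-cell-like cells. The same held for Asns, Ccl4, Chrdl2, Hmmr and Mcm4 in neutrophil-like cells and for Dbp, Fosl2, Nfkbia, Per3, Pou3f1 and Selplg in monocyte-like cells. Within the TO arm alone, 2 libraries against 2, the calls were 5876, 733 and 2411. Within the TOE arm alone edgeR called no gene in the 3 classes, with 1497, 1542 and 2128 genes at an unadjusted p under 0.05 and 251, 317 and 457 calls by DESeq2.

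**Figure D2:**
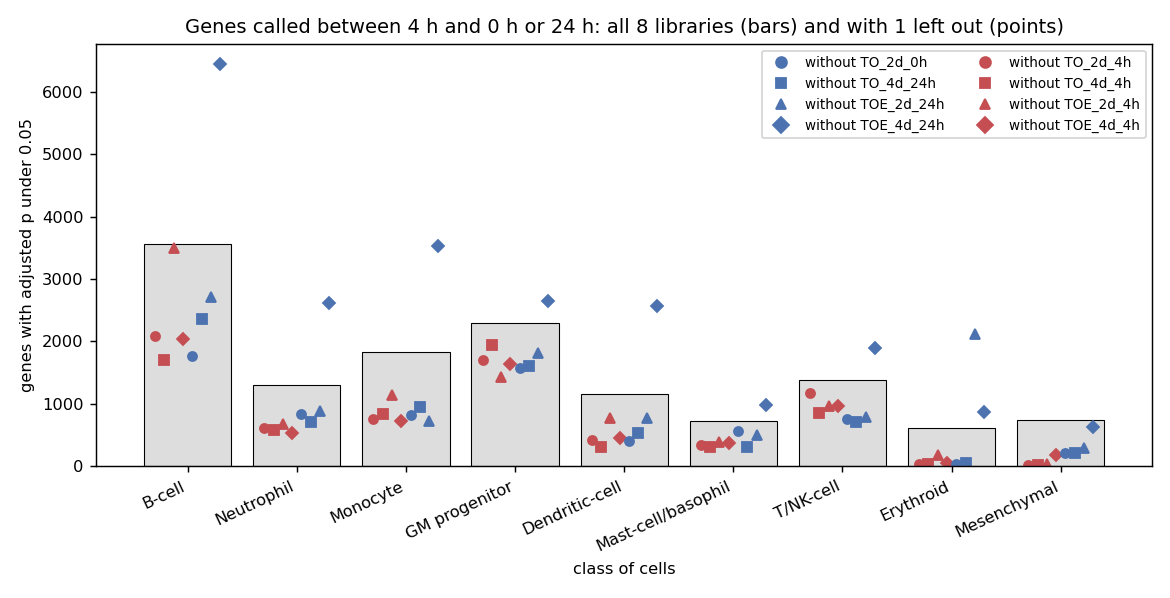
Number of genes with adjusted p under 0.05 (y axis) in each class with all 8 libraries (bars) and with 1 library left out (points; blue, a 0 h or 24 h library; red, a 4 h library). The blue diamonds, without TOE_4d_24h, reach 6442 genes in B-cell-like cells against 3566 with all libraries.

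Several transcripts moved in the same direction in every class. Among 7214 genes tested in all 9 classes, 14 were higher and 42 were lower at 4 h in each class. Over all genes, also those tested in fewer classes, 42 were called in opposite directions in different classes. Classes come from the same libraries, so these are not independent repeats. Prss29 and Prss34, serine proteases of mast cells and basophils, were among the genes that fell most. In mast-cell/basophil-like cells Prss29 stood at 153, 201, 197 and 182 CPM at 4 h, against 13096, 16686, 20884 and 15625 CPM in the other libraries. The groups lay 90.3-fold apart in their means (log2 difference −6.69 ± 0.19 (SE), adjusted p = 3.85e-09). Prss34 reached 291, 338, 323 and 353 CPM at 4 h and 7698, 9715, 9051 and 9416 CPM otherwise (−4.98 ± 0.15, adjusted p = 3.85e-09). No library overlapped for either gene. Among other markers of the class, Mcpt8, a basophil protease, had a log2 difference of −0.72 ± 0.23 (adjusted p = 0.0702), and Ms4a2, the beta chain of the IgE receptor, −0.39 ± 0.19 (adjusted p = 0.216). Prss29 and Prss34 were also called lower in each of the 8 classes in which they were tested. In B-cell-like cells, which should not make it, Prss29 lay between 13.3 and 18.9 CPM at 0 h or 24 h and between 0.0231 and 0.0874 CPM at 4 h. In B-cell-like cells the 6 mast-cell/basophil markers, a list that holds Prss34 itself, summed to 21.2 to 64.8 CPM at 0 h or 24 h. At 4 h they summed to 4.85 to 12.5 CPM. Of the 5 tested, 2 were called lower there, and no sum without Prss34 was taken. The part of free RNA in these levels was not tested.

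Reln, which encodes the secreted glycoprotein reelin, was lower at 4 h in all 9 classes. In monocyte-like cells it measured 0.344, 0.977, 0.858 and 0.898 CPM at 4 h and 36.9, 47.3, 98.5 and 30.4 CPM in the other libraries (−6.11 ± 0.49, adjusted p = 0.000515). B-cell-like cells held it at 16.8, 20.8, 29.2 and 25 CPM against 44.2, 59.3, 87.4 and 77.5 CPM (−1.62 ± 0.23, adjusted p = 0.0026). The groups did not overlap in either class, and the fall was larger in monocyte-like than in B-cell-like cells (difference of the log2 differences 4.39 ± 0.36, adjusted p = 0.00102). Jchain, which joins the subunits of polymeric immunoglobulins, was also lower in all 9 classes. Its level in B-cell-like cells was 117, 107, 210.0 and 203 CPM at 4 h and 811, 769, 595 and 578 CPM otherwise (−2.20 ± 0.24, adjusted p = 0.00128). Of the 7 plasma-cell markers, a list that holds Jchain itself, 2 were called lower in B-cell-like cells, and the other 6 summed to 156 to 221 CPM at 4 h and to 181 to 372 CPM in the other libraries, which overlapped. Plasma-cell-like cells formed a class of their own with finer clusters, at a Leiden resolution of 2, where they made up 0.0241% to 0.104% of cells at 4 h and 0.00833% to 0.105% otherwise (two-sided exact permutation p = 1). TOE_4d_24h, with 1 such cell, held Jchain at 578 CPM in B-cell-like cells, and TOE_4d_4h, with 14, at 203 CPM. A B-cell-like cluster with Igha and Jchain among its leading genes held 22, 21, 47 and 46 cells of the 4 h libraries. In the other libraries it held 1240, 1415, 1371 and 58 cells. The part of these cells and of free RNA in the Jchain levels was not tested.

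Genes of the translation machinery changed in both directions in every class. Pabpc1, which binds the poly(A) tail, stood at 700.2, 633, 516 and 502 CPM in B-cell-like cells at 4 h and at 249, 253, 235 and 281 CPM in the others (1.14 ± 0.15, adjusted p = 0.00215). Eef1a1, the elongation factor that brings tRNA to the ribosome, stood at 333, 306, 274 and 224 CPM against 529.7, 512, 518 and 629.7 CPM (−1.01 ± 0.15, adjusted p = 0.00349). The groups did not overlap for either gene. Among ribosomal protein genes of B-cell-like cells, 12 of 75 were higher and 31 lower, with a median log2 difference of −0.29. Rpl21, Rpl4, Rpl23a and Rpl13a were higher and Rps29, Rpl38, Rps21 and Rps28 lower in all 9 classes. These genes, like Eef1a1, have many near-identical copies in the genome, and how reads were shared among the copies is not known from the files.

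**Figure D3:**
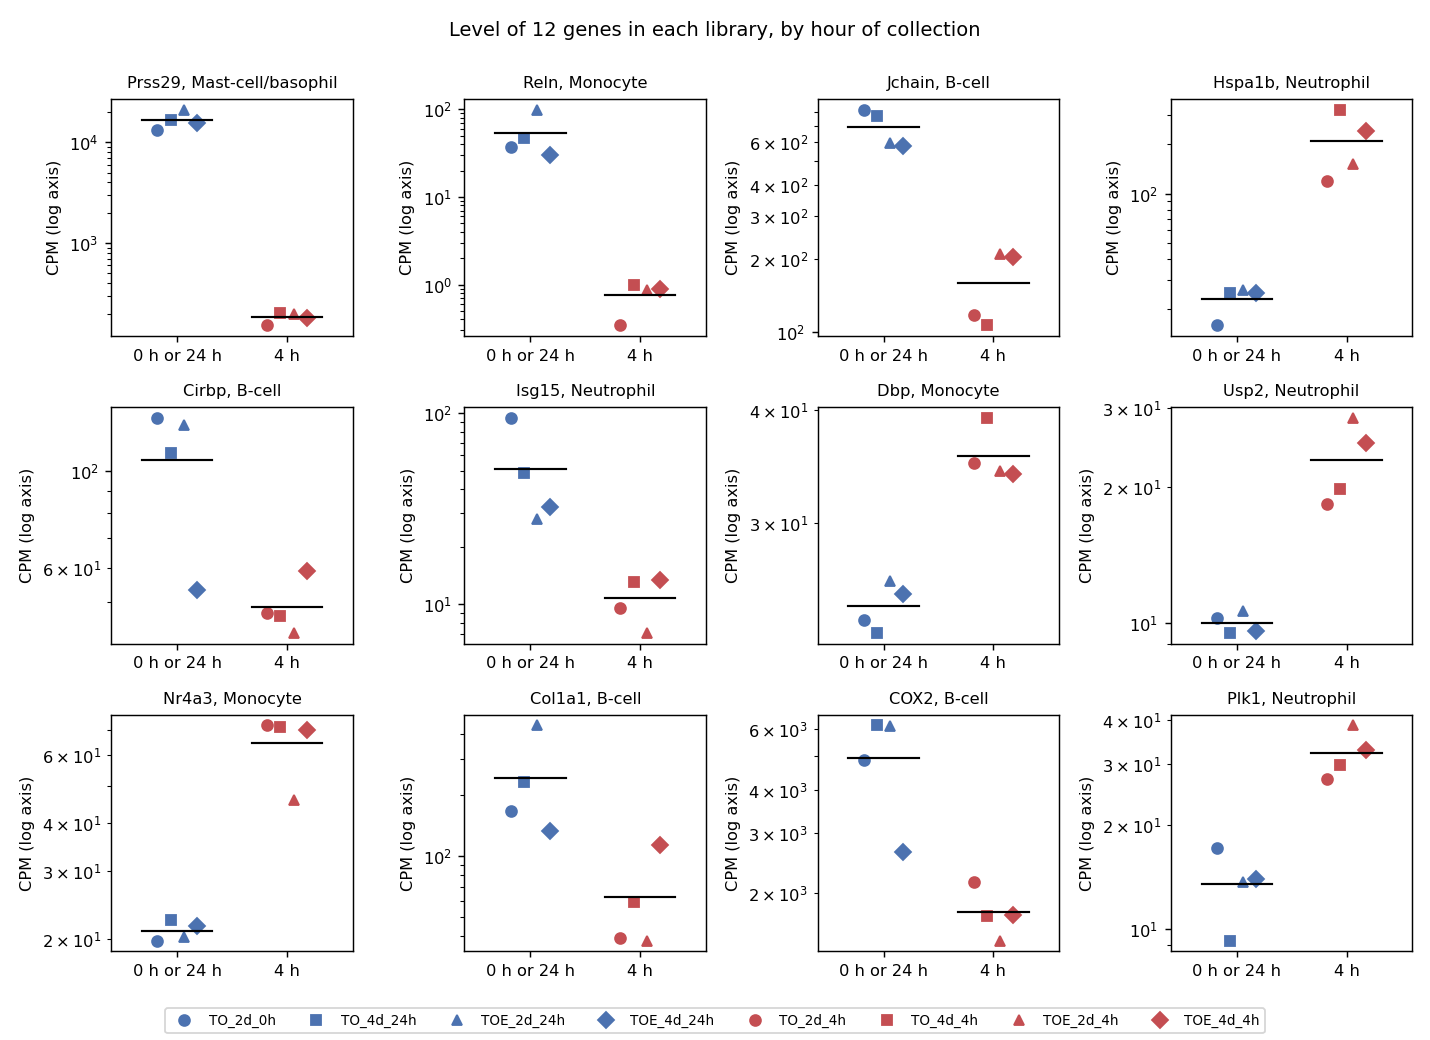
CPM (log axis) of 12 genes in each of the 8 libraries, with the class named above each panel; blue symbols are 0 h or 24 h libraries, red symbols 4 h libraries and bars the group means. Prss29 is separated by 90.3-fold in its means, and Cirbp shows TOE_4d_24h at 53.5 CPM, among the 4 h libraries.

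Some chaperones of the heat shock response rose in B-cell-like and neutrophil-like cells. Of 20 chaperone genes tested in B-cell-like cells, Hspa1a, Hspa1b, Hsph1, Stip1 and Chordc1 were higher and none lower (median 0.37, against −0.01 for all genes). In neutrophil-like cells 5 of 19 were higher, namely Hspa1a, Hspa1b, Hspd1, Stip1 and Chordc1, and none lower (median 0.52, against −0.03). Monocyte-like cells had 1 of 20 higher, Stip1. Without TOE_4d_24h, 5 of 20 were higher in both B-cell-like and monocyte-like cells, in the latter Bag3, Chordc1, Hsp90aa1, Hsph1 and Stip1, with 1 lower in each, and 6 of 20 were higher in neutrophil-like cells. Hspa1b, an inducible HSP70 chaperone, reached 118, 321, 150.0 and 239 CPM in neutrophil-like cells at 4 h and 15.9, 25, 26.1 and 25.1 CPM otherwise (2.96 ± 0.33, adjusted p = 0.00117). In B-cell-like cells it reached 42.9, 129, 49.5 and 206 CPM against 14.6, 23.9, 29.8 and 18.2 CPM (2.20 ± 0.47, adjusted p = 0.0125). Every 4 h library lay above every other library in both classes. Monocyte-like cells had higher levels in both groups, 588, 1835, 902 and 2004 CPM at 4 h and 268, 958, 373 and 1434 CPM otherwise, which overlapped (0.87 ± 0.53, adjusted p = 0.301). The difference between neutrophil-like and monocyte-like cells was itself called (1.95 ± 0.35, adjusted p = 0.0159). Hspa1a and Hspa1b are nearly identical, and their reads may have been split between them.

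Hsph1, an HSP110 nucleotide exchange factor for HSP70, measured 774, 1155, 570.3 and 1392 CPM in B-cell-like cells at 4 h and 269.7, 352, 374 and 349 CPM in the others (1.45 ± 0.25, adjusted p = 0.00565). Stip1, which links HSP70 to HSP90, measured 133, 174, 128 and 187 CPM against 79.9, 97.3, 74.3 and 75.5 CPM (0.84 ± 0.16, adjusted p = 0.00759). In T/NK-cell-like cells 7 of 18 chaperones were higher and Hsph1 rose by 2.04 ± 0.27 on the log2 scale (adjusted p = 0.000713). Granulocyte-monocyte progenitor-like cells had 2 of 20 higher and 1 lower. Mast-cell/basophil-like cells, with 17 tested, and mesenchymal-like cells, with 20, each had 1 higher and 1 lower. Dendritic-cell-like cells had 1 of 20 lower and none higher, and none of 19 was called in erythroid-like cells. The heat shock element, searched as GAANNTTC, which reads the same on both strands, was found in the 250 bases before the start of 9 of 16 chaperone genes with a promoter in RefSeq, and in 7.23% of 33469 promoters. Of the 4 chaperones called higher in B-cell-like cells that have a promoter in that table, Hsph1 holds the motif. A match is a description of letters and not of binding. The stretch of the Hsph1 promoter around it (GRCr8, chr12:10427268-10427367, + strand) is shown with the motif in capitals because this gene was among those called.
Hsph1: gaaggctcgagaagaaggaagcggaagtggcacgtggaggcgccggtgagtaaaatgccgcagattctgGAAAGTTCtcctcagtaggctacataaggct

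Cirbp, an RNA-binding protein induced by mild cold, was lower at 4 h in 8 of 9 classes. Neutrophil-like cells held it at 21.9, 23.4, 16.0 and 16.6 CPM at 4 h and at 46.9, 42.0, 45.2 and 23.5 CPM otherwise (−1.21 ± 0.23, adjusted p = 0.0125). In B-cell-like cells the levels were 47.3, 46.5, 42.6 and 58.8 CPM and 132, 109.7, 127 and 53.5 CPM (−1.20 ± 0.27, adjusted p = 0.0139). The groups overlapped there through TOE_4d_24h alone, and without it the log2 difference was −1.44 (adjusted p = 0.000108). Rbm3, the other cold-inducible protein, was called lower in T/NK-cell-like cells (−0.61 ± 0.17, adjusted p = 0.0272) and had a log2 difference of −0.43 ± 0.16 in B-cell-like cells (adjusted p = 0.0805). With all libraries it was called in no class other than T/NK-cell-like cells. Its log2 difference was positive in monocyte-like and mesenchymal-like cells, where Cirbp was lower. The Cirbp call in neutrophil-like cells was lost without TOE_4d_4h (adjusted p = 0.0507).

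Interferon-stimulated genes carry out the antiviral response, and 8 of them were lower at 4 h in neutrophil-like cells. The 18 tested held 8 lower (Isg15, Irf7, Rsad2, Ifit1, Ifit3, Oasl, Oasl2 and Usp18) and 1 was higher, with a median log2 difference of −1.01. B-cell-like cells had 4 of 19 lower and monocyte-like cells 3 of 19 lower, with none higher. Without TOE_4d_24h the genes lower were 9 of 19 in B-cell-like (47.4%), 8 of 18 in neutrophil-like (44.4%) and 6 of 19 in monocyte-like cells (31.6%). Isg15, a ubiquitin-like modifier, stood at 9.60, 13.1, 7.09 and 13.4 CPM in neutrophil-like cells at 4 h and at 94.5, 48.6, 27.8 and 32.4 CPM in the others (−2.40 ± 0.38, adjusted p = 0.00552). Irf7, the transcription factor that amplifies interferon production, stood at 9.60, 12.6, 6.56 and 11.7 CPM against 60.5, 28.1, 20.6 and 13.4 CPM (−1.76 ± 0.41, adjusted p = 0.0263). Rsad2, the antiviral enzyme viperin, stood at 3.65, 5.73, 2.76 and 3.98 CPM against 15.5, 11.3, 5.91 and 10.2 CPM (−1.59 ± 0.31, adjusted p = 0.0128). The groups were separate for all of these, and TO_2d_0h was the highest library for each. The fall was larger in neutrophil-like than in B-cell-like cells for Isg15 (1.33 ± 0.25, adjusted p = 0.0173) and Rsad2 (1.79 ± 0.29, adjusted p = 0.00821). Oas1a, an oligoadenylate synthetase of the same response, went the other way, with 93.0, 111, 163 and 199 CPM at 4 h and 44.1, 63.8, 66.2 and 19.7 CPM otherwise (1.34 ± 0.37, adjusted p = 0.0482). In B-cell-like cells Oasl2 was at 3.97, 7.21, 6.79 and 6.89 CPM against 14.0, 9.62, 11.1 and 12.8 CPM (−1.01 ± 0.20, adjusted p = 0.00838). Calls were lost for Irf7 without TOE_2d_4h (adjusted p = 0.0738) and for Oas1a without TOE_4d_4h (0.135).

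The interferon-stimulated response element was searched as GAAANNGAAA and as TTTCNNTTTC on the other strand. It was found in 9 of 13 interferon-stimulated genes with a promoter in RefSeq and in 3.41% of 33469 promoters. Of the 8 genes lower in neutrophil-like cells, 5 have a promoter in the table and 4 of them hold it, while the promoter of Oas1a, which was higher, holds it too. These 4 stretches are shown so that the shared letters, in capitals, can be seen beside the falls above. They come from GRCr8, from chr1:205800024-205800123 (− strand) for Irf7, chr6:48788121-48788290 (− strand) for Rsad2, chr12:47383186-47383355 (− strand) for Oasl2 and chr1:241527226-241527325 (+ strand) for Ifit3.
Irf7: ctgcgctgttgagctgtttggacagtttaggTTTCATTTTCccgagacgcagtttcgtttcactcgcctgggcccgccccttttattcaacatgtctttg
Rsad2: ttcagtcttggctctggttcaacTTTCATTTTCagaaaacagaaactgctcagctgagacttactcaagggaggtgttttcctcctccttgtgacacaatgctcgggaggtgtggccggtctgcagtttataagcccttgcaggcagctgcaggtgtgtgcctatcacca
Oasl2: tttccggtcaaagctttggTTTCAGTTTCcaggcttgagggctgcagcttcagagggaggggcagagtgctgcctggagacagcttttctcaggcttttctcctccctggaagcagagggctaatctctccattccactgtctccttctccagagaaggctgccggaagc
Ifit3: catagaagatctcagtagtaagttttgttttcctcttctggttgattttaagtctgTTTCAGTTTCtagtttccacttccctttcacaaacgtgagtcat

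Few clock genes were called in the 3 largest classes when all 8 libraries were used. Over the B-cell-like, neutrophil-like and monocyte-like cells, 3 of 50 tests of repressors, outputs, activators and their phase mates were called, to be read against the background shares above. Dbp, an output transcription factor of the clock, measured 34.9, 39.2, 34.2 and 33.9 CPM in monocyte-like cells at 4 h and 23.4, 22.6, 25.8 and 25 CPM otherwise (0.57 ± 0.11, adjusted p = 0.0118). Usp2, a clock-controlled deubiquitinase, measured 18.4, 19.8, 28.6 and 25.1 CPM in neutrophil-like cells against 10.3, 9.50, 10.7 and 9.58 CPM (0.99 ± 0.17, adjusted p = 0.00757). Neither gene overlapped between the groups. Per3, a clock repressor, was lower in monocyte-like cells with overlapping groups, 4.17, 5.46, 2.48 and 3.32 CPM against 5.06, 6.94, 12.5 and 12.1 CPM (−1.22 ± 0.33, adjusted p = 0.0415). The Per3 call was lost without TOE_2d_24h (adjusted p = 0.104). Per1, Per2, Cry2, Nr1d1, Nr1d2, Bmal1, Clock and the remaining members did not pass the test in any of the 3 classes.

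Without TOE_4d_24h, 17 of these tests passed, 5 higher and 12 lower at 4 h, the most that leaving out 1 library gave. The background without that library was also higher, 17.5% and 18.4% of all genes in B-cell-like cells, where 2 of 6 activators and their phase mates were higher and 4 of 12 repressors and outputs lower. In B-cell-like cells Bmal1 (0.59, adjusted p = 0.0143) and Clock (0.46, adjusted p = 0.0191) were then higher. The repressors and output gene Cry2 (−0.85), Per2 (−0.87), Per3 (−0.70) and Dbp (−0.40) were lower, with adjusted p between 0.00127 and 0.0186. Bmal1 in B-cell-like cells was not called with all libraries, 10.2, 9.70, 9.35 and 9.09 CPM at 4 h and 6.41, 4.87, 6.59 and, in TOE_4d_24h, 10.1 CPM. Neutrophil-like cells then had Per1, Nr1d1, Nr1d2 and Bhlhe40 lower, and monocyte-like cells Clock higher and Cry2, Per2 and Nr1d2 lower. The change of Dbp differed between B-cell-like and monocyte-like cells (difference of the log2 differences −0.85 ± 0.14 with all libraries, adjusted p = 0.0408). Among kinases and ubiquitin ligases that set the pace of the clock, Gsk3b and Fbxw11 were among those higher in B-cell-like cells. Gsk3b stood at 216, 211, 226 and 205 CPM at 4 h and at 135, 132, 142 and 178 CPM otherwise (0.48 ± 0.11, adjusted p = 0.0162), and its call was lost without TO_2d_0h (adjusted p = 0.0567). Mesenchymal-like cells had Nr1d1 (−1.85 ± 0.33, adjusted p = 0.0228) and Bhlhe40 (−1.61 ± 0.24, adjusted p = 0.0164), both repressors, lower at 4 h. Nr1d1 lost its call when any 1 of the 4 h libraries was left out, and Bhlhe40 without TO_2d_4h, TO_4d_4h or TOE_2d_4h. T/NK-cell-like cells had 2 of 9 repressors and outputs lower and 1 of 5 activators and phase mates higher with all libraries. This class had 29 to 198 cells and 299230 to 1925920 UMIs per library, so its low CPM values rest on few UMIs. Per2 stood there at 9.76, 7.49, 12.1 and 7.92 CPM at 4 h and at 17.2, 16.1, 25.3 and 13.4 CPM otherwise (−1.13 ± 0.31, adjusted p = 0.0258). Per3 (−1.25 ± 0.31, adjusted p = 0.0157) and Bmal1 (0.59 ± 0.18, adjusted p = 0.0423) were likewise without overlap, Bmal1 being the one higher. Per2 kept its call without TO_2d_4h, TOE_2d_4h or TOE_4d_24h and lost it when any other was left out, Per3 lost it without TO_4d_24h or TOE_2d_24h, and Bmal1 kept it only without TOE_4d_24h. Rora, a nuclear receptor that activates Bmal1, was lower in granulocyte-monocyte progenitor-like cells (−1.73 ± 0.36, adjusted p = 0.00732), also with any 1 library left out.

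**Figure D4:**
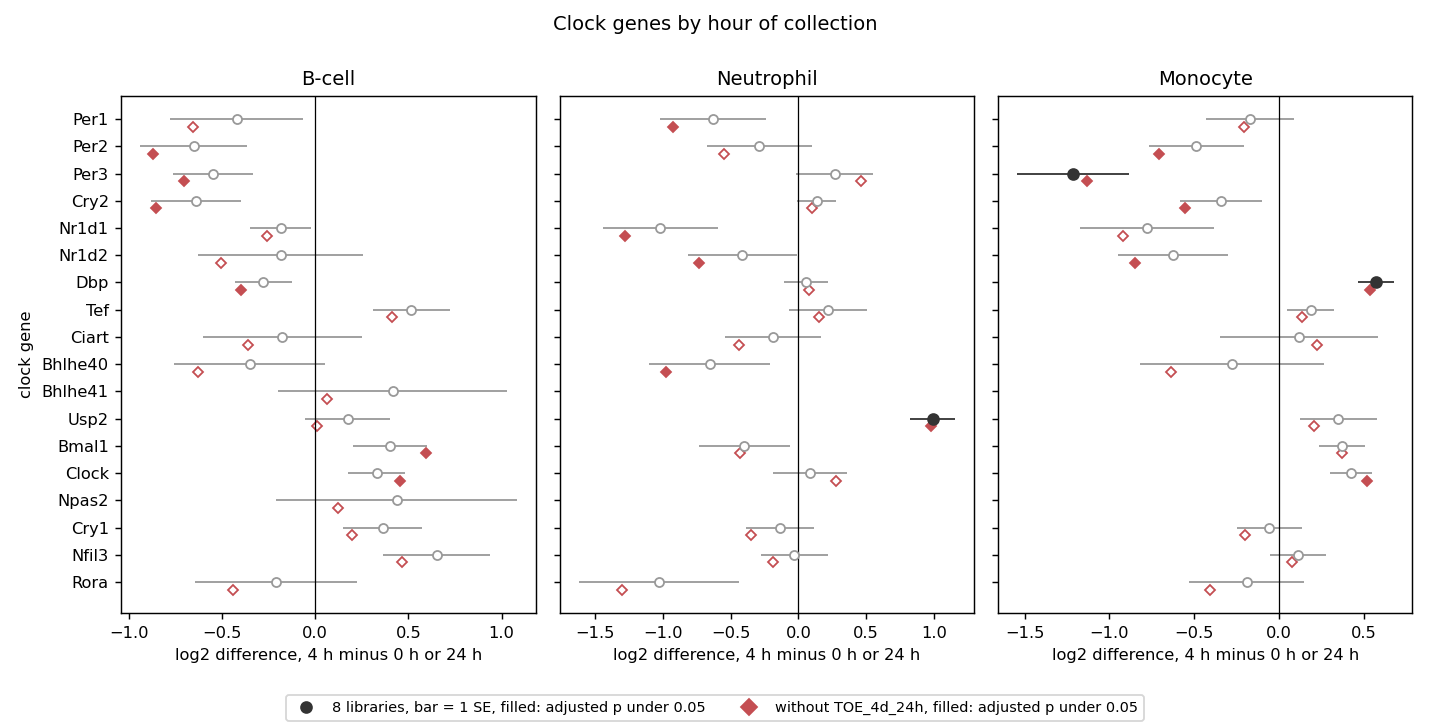
Log2 difference (x axis) of each clock gene between 4 h and 0 h or 24 h in 3 classes, for all 8 libraries (circles, bars 1 SE) and without TOE_4d_24h (diamonds, no bars); filled symbols have an adjusted p under 0.05. With all libraries 3 symbols are filled, and without TOE_4d_24h 17 are.

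Of 16 glucocorticoid-responsive genes, 1 was higher and 1 lower in both B-cell-like and monocyte-like cells and none was called in neutrophil-like cells. Without TOE_4d_24h, 2 were higher and 3 lower in B-cell-like, 0 and 4 in neutrophil-like and 2 and 4 in monocyte-like cells. Errfi1, a feedback inhibitor of EGF receptor signalling, was higher in monocyte-like cells, with 41.5, 41.2, 47.7 and 50.4 CPM at 4 h and 22.7, 18.9, 21.9 and 18.6 CPM otherwise (1.15 ± 0.13, adjusted p = 0.00236). Txnip, which restrains thioredoxin and glucose uptake, was lower in B-cell-like cells, with 30.8, 49.1, 57.5 and 43.9 CPM against 83.7, 128, 112 and 60.7 CPM (−1.18 ± 0.26, adjusted p = 0.0138). It was called lower in 7 of 9 classes. The groups were separate for both genes in these cells. Tsc22d3, the glucocorticoid-induced leucine zipper, was not called in B-cell-like cells (−0.65 ± 0.23, adjusted p = 0.0755), and without TOE_4d_24h it was (−0.85, adjusted p = 0.00106).

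Immediate-early genes, the first to respond to a stimulus, were called in monocyte-like and mesenchymal-like cells among others, and the difference between these classes was not tested. In monocyte-like cells 5 of 29 were higher (Fosl1, Fosl2, Ier3, Nr4a3 and Zfp36) and none lower, with a median log2 difference of 0.44. Without TOE_4d_24h 10 were higher and Atf3, Jund and Klf2 lower in these cells. Mesenchymal-like cells had 8 of 29 lower (Atf3, Btg2, Fos, Ier2, Jun, Junb, Jund and Klf2) and 1 higher, with a median of −0.52. Nr4a3, an orphan nuclear receptor, was higher in both classes. It stood at 71.9, 71.1, 46.0 and 69.7 CPM in monocyte-like cells at 4 h and at 19.8, 22.3, 20.2 and 21.6 CPM otherwise (1.65 ± 0.17, adjusted p = 0.00139). Fosl1, an AP-1 subunit, stood at 128, 150.3, 88.0 and 143 CPM in the same cells against 56.1, 54.5, 62.4 and 61.8 CPM (1.14 ± 0.17, adjusted p = 0.00652). Fos in mesenchymal-like cells was at 1555, 1284, 1474 and 1057 CPM at 4 h and at 2319, 2405, 2214 and 2122 CPM in the others (−1.0 ± 0.21, adjusted p = 0.033). Klf2, a flow-responsive factor, was at 159.7, 79.8, 146 and 103 CPM against 688, 813, 433 and 259 CPM there (−2.46 ± 0.42, adjusted p = 0.0227). The mesenchymal-like class had 73 to 1210 cells per library, and its 740 calls fell to 16 without TO_2d_4h or without TO_4d_4h and to 33 without TOE_2d_4h. Atf3, a stress-induced repressor, was lower in neutrophil-like cells with an overlap through TOE_4d_24h, at 50.4, 55.7, 33.9 and 42.0 CPM against 108, 155, 189 and 40.5 CPM (−1.64 ± 0.40, adjusted p = 0.0303), and its call was lost without TOE_4d_4h (adjusted p = 0.09).

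NF-kB targets gave 1 call in monocyte-like cells, 1 in neutrophil-like cells and none in B-cell-like cells, each of 21 tested. Granulocyte-monocyte progenitor-like cells had 3 of 21 higher (Il1b, Nfkbia and Tnfaip3), against 9.58% of all genes there. T/NK-cell-like cells had 1 of 17 higher, Nfkbia. No call came in dendritic-cell-like, erythroid-like, mast-cell/basophil-like or mesenchymal-like cells. Without TOE_4d_24h 9 of 21 were lower in neutrophil-like cells (42.9%, against 10.4% of all genes), namely Ccl3, Ccl4, Cxcl1, Cxcl3, Nfkb2, Nfkbie, Relb, Sod2 and Traf1. B-cell-like cells then had 5 lower and monocyte-like cells 1 higher and 2 lower. Of the members lower in neutrophil-like cells, Cxcl3, Ccl3 and Cxcl1 were among the leading genes of the neutrophil-like cluster described above. That cluster took 83.2% of its cells from TO_2d_0h, and its part in these calls was not tested. Nfkbia, the inhibitor that ends NF-kB signalling, stood at 2814, 2571, 2131 and 2819 CPM in monocyte-like cells at 4 h and at 1246, 1217, 1375 and 425 CPM otherwise (1.27 ± 0.35, adjusted p = 0.0424). Ccl4, a chemokine, stood at 2.62, 2.04, 1.94 and 2.79 CPM in neutrophil-like cells against 24.5, 3.54, 20.1 and 3.79 CPM (−2.62 ± 0.60, adjusted p = 0.0252). The groups were separate in both, though for Ccl4 the TO_4d_24h and TOE_4d_24h libraries lay close to the 4 h level. Both calls depended on single libraries, Nfkbia being lost without TO_2d_4h (adjusted p = 0.106) and Ccl4 without TO_4d_4h (0.0741).

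Of 21 hypoxia and glycolysis genes in monocyte-like cells 5 were higher and 1 lower, with a median log2 difference of 0.56. Pkm, the pyruvate kinase of the last step of glycolysis, measured 651, 685, 859 and 1021 CPM at 4 h and 429.6, 430.4, 437 and 453 CPM in the others (0.89 ± 0.15, adjusted p = 0.00914). Pfkfb4, which makes an activator of glycolysis, measured 253, 219, 183 and 193 CPM against 136, 138, 90.7 and 64.7 CPM (0.98 ± 0.27, adjusted p = 0.0439). Ndrg1, a hypoxia-induced gene, was higher in B-cell-like cells, at 13.6, 12.5, 9.71 and 14.3 CPM against 4.6, 4.29, 6.96 and 5.14 CPM (1.19 ± 0.20, adjusted p = 0.00566). The groups did not overlap for these genes. In B-cell-like cells the list was split, with Ero1a, Ndrg1, P4ha1 and Pfkfb3 higher and Aldoa, Ldha and Pgk1 lower. Aldoa, the glycolytic aldolase, was lower in all 3 classes. In neutrophil-like cells it was at 1.41, 0.606, 0.895 and 0.929 CPM at 4 h and at 8.44, 7.34, 7.46 and 11.2 CPM otherwise (−3.37 ± 0.29, adjusted p = 0.000269). Aldoa has close copies in the genome, and these levels hold only the reads assigned to it. The Pfkfb4 call was lost without TO_2d_4h (adjusted p = 0.119).

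Among genes of the integrated stress and unfolded protein responses, 1 was higher and 1 lower of 19 in both B-cell-like and neutrophil-like cells. Granulocyte-monocyte progenitor-like cells had 5 of 19 higher (Hspa5, Hyou1, Pdia4, Phgdh and Psat1), against 9.58% of all genes, and 1 lower. T/NK-cell-like cells had 3 of 14 lower and mesenchymal-like cells 2 of 20, with none higher. Dendritic-cell-like and mast-cell/basophil-like cells each had 1 lower. None of 19 was called in monocyte-like or erythroid-like cells. Without TOE_4d_24h 8 were lower in B-cell-like cells (42.1%, against 18.4% of all genes), namely Asns, Atf4, Chac1, Herpud1, Hspa5, Nupr1, Slc3a2 and Xbp1, and 3 in neutrophil-like cells. Asns, asparagine synthetase, measured 13.6, 13.1, 22.9 and 22.6 CPM in neutrophil-like cells at 4 h and 9.59, 9.16, 8.24 and 6.23 CPM otherwise (0.92 ± 0.24, adjusted p = 0.0367). Hyou1, an endoplasmic reticulum chaperone, measured 21.0, 26.6, 22.8 and 27.7 CPM in B-cell-like cells against 16.2, 18.2, 16.3 and 17.9 CPM (0.44 ± 0.12, adjusted p = 0.0318). Nupr1, a stress-induced chromatin protein, was lower in both classes, at 0.370, 1.46, 1.12 and 1.95 CPM in B-cell-like cells against 3.83, 4.67, 8.93 and 2.33 CPM (−2.11 ± 0.51, adjusted p = 0.019). Calls were lost for Asns without TOE_4d_4h (adjusted p = 0.104), for Hyou1 without TO_4d_4h (0.104) and for Nupr1 without TO_4d_4h (0.0519).

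Several cell cycle genes were higher at 4 h in neutrophil-like cells. Of 18 genes of G2/M phase, Bub1, Cenpe, Hmmr, Kif23 and Plk1 were higher and none lower (median 0.56), and without TOE_4d_24h 10 were higher (55.6%, against 8.89% of all genes). Of 18 S phase genes, Mcm4 and Slbp were higher (median 0.46). Plk1, the mitotic polo-like kinase, stood at 27.1, 29.8, 38.7 and 32.9 CPM at 4 h and at 17.2, 9.24, 13.6 and 13.9 CPM otherwise (1.05 ± 0.19, adjusted p = 0.00899). Cenpe, a kinetochore motor, stood at 50.1, 44.2, 73.5 and 48.2 CPM against 32.7, 18.8, 29.5 and 26.8 CPM (0.79 ± 0.19, adjusted p = 0.0306). Both groups were separate. T/NK-cell-like cells had 5 of 18 S phase genes lower and none higher (median −0.48) with 2 G2/M genes higher, monocyte-like cells had 1 S phase gene higher, 2 lower and 1 G2/M gene, Ccnb1, lower, and granulocyte-monocyte progenitor-like cells had 5 of each list higher and none lower. The share of neutrophil-like cells with a UMI of 1 of 6 cycling markers also differed, 69.7% to 78.3% at 4 h against 43.1% to 60.8%, and the median UMI count of these cells was 5761 to 8420.5 at 4 h against 4018.5 to 6239. Restricted to cells without such a UMI, the direction turned for Cenpe (−0.53), Hmmr (−0.32) and Mcm4 (−0.11), and the count of all calls was 534. At 4 h a cluster led by RatNP-3b held 739 of 1989, 810 of 2143, 717 of 1363 and 582 of 1348 neutrophil-like cells. In the other libraries it held 415 of 1460, 342 of 2280, 523 of 1609 and 1033 of 3202. The part of this cluster in these calls was not tested. Pcna, the replication clamp, was higher in B-cell-like cells, at 239, 305, 368 and 304 CPM against 201, 222, 169 and 165 CPM (0.60 ± 0.16, adjusted p = 0.0258). The other genes of both cell cycle lists did not pass the test in B-cell-like cells. Calls were lost for Cenpe without TOE_2d_4h (adjusted p = 0.074) and for Pcna without TO_4d_4h (0.0684).

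Genes encoded by the mitochondrial genome were called lower at 4 h in 8 of 9 classes. Among these 13 genes, B-cell-like cells had 5 calls, with 7 in neutrophil-like, 6 in monocyte-like, 9 in granulocyte-monocyte progenitor-like and 11 in T/NK-cell-like cells, with none higher in these classes, and 0 in erythroid-like cells. Mast-cell/basophil-like, mesenchymal-like and dendritic-cell-like cells each had 5 lower, and in the last ND5 was higher (0.62 ± 0.15, adjusted p = 0.0313). Without TOE_4d_24h the calls were 11 in B-cell-like, 9 in neutrophil-like and 10 in monocyte-like cells, all lower. COX2, a subunit of cytochrome c oxidase, stood at 2159, 1719, 1458 and 1729 CPM in B-cell-like cells at 4 h and at 4878, 6148, 6134 and 2638 CPM otherwise (−1.57 ± 0.28, adjusted p = 0.00627). ND4L, a subunit of complex I, stood at 19.0, 10.6, 9.32 and 9.63 CPM in neutrophil-like cells against 59.6, 59.0, 71.6 and 41.5 CPM (−2.45 ± 0.27, adjusted p = 0.00115). TOE_4d_24h was the lowest of the 0 h or 24 h libraries for both genes but stayed above every 4 h library. The share of mitochondrial UMIs in B-cell-like cells was 1.11% to 1.86% at 4 h and 1.39% to 3.20% in the others. Its part in the other results was not tested.

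Several collagen and other matrix genes, products of mesenchymal cells, were lower in blood cells. The 12 genes had 4 calls in B-cell-like, 4 in neutrophil-like and 5 in monocyte-like cells, all lower, and none in mesenchymal-like cells, whose median log2 difference was 0.08. Col1a1, the chain of type I collagen, was at 39.0, 59.0, 38.0 and 113 CPM in B-cell-like cells at 4 h and at 166, 232, 442 and 132 CPM otherwise (−2.07 ± 0.45, adjusted p = 0.0128). In mesenchymal-like cells it was at 61195, 26650.3, 83589 and 51087 CPM against 44036, 112269, 28606 and 75195 CPM, which overlapped (−0.55 ± 0.55, adjusted p = 0.567). TOE_2d_24h, where 8.45% of cells were mesenchymal-like, held the most Col1a1 in B-cell-like cells. The next highest share was 2.29% in TO_4d_4h, which held 59.0 CPM, while TO_4d_24h, with a share of 1.04%, held 232 CPM. Of the 1210 mesenchymal-like cells of TOE_2d_24h, 708 came from a cluster with a median of 873.5 UMIs. With coarser clusters, at a Leiden resolution of 0.5, the highest mesenchymal-like share at 0 h or 24 h was 3.51%. The mesenchymal marker list holds Col1a1 itself, with Col1a2, Sparc and Dcn. Its sum in B-cell-like cells ran from 318 to 480.3 CPM at 4 h and from 477 to 1160.1 CPM otherwise. Endothelial markers went the other way there, 129 to 174 CPM at 4 h and 47.5 to 112 CPM otherwise, with 2 of 9 called higher. Bglap, the osteoblast hormone osteocalcin, was among the 8 genes with the steepest falls in B-cell-like cells, at 12, 4.98, 13.4 and 14.1 CPM against 115, 242, 212 and 155 CPM (−4.10 ± 0.38, adjusted p = 0.000637). The part of free RNA in these levels was not tested.

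Many transfer RNAs and histones were lower at 4 h. These groups were read from gene symbols and were chosen after their values were seen. Of 146 tRNA genes in B-cell-like cells 74 were lower and none higher (median −1.84). Neutrophil-like cells had 33 of 41 lower and 1 higher (median −2.94). Monocyte-like cells had 14 of 57 lower and none higher (median −2.52). Because the count filter used the hour groups, a scarce gene could be tested through the group where it was higher. The tested numbers, shares and medians of tRNAs, histones and small nucleolar RNAs thus depend on that filter. Its part in them was not tested. Of 53 histone genes in B-cell-like cells 37 were lower and none higher (median −1.24), of 51 in neutrophil-like cells 29 were lower and 1 higher, and of 52 in monocyte-like cells 34 were lower. Hist1h2ah, an H2A histone, stood at 34.2, 36.7, 30.5 and 28.4 CPM in B-cell-like cells at 4 h and at 226, 244, 171 and 289 CPM in the others (−2.91 ± 0.17, adjusted p = 0.00011). Snord13, a small nucleolar RNA, stood at 0.768, 0.771, 0.970 and 0.398 CPM in neutrophil-like cells against 14.6, 13, 12.3 and 25.6 CPM (−4.70 ± 0.33, adjusted p = 8.36e-05). H3f3b, the H3.3 variant made outside S phase, was lower in all 9 classes, and in B-cell-like cells TOE_4d_24h, at 1388 CPM, lay with the 4 h libraries, which spanned 1253 to 1514 CPM. As background, tRNAs and replication-dependent histone mRNAs lack a poly(A) tail, on which this assay primes, and both have near-identical copies. The H3f3b call was lost without TO_4d_4h (adjusted p = 0.0518).

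Among genes with large rises in B-cell-like cells, Hpse2, a heparanase relative, was at 18.7, 4.98, 0.763 and 7.67 CPM at 4 h and at 0.416, 0.382, 0.280 and 0.392 CPM otherwise (4.39 ± 0.82, adjusted p = 0.00757). In neutrophil-like cells Chrdl2, a BMP antagonist, was at 19.3, 22.0, 23.3 and 20.4 CPM against 0, 2.85, 0 and 4.74 CPM (3.15 ± 0.82, adjusted p = 0.038), and both libraries at 0 were from day 2. The Chrdl2 call was lost when any of 5 of the 8 libraries was left out. Prune2 was at 4.73, 3.91, 3.21 and 3.05 CPM in the same cells against 0.863, 0.346, 0.0778 and 0.383 CPM (2.99 ± 0.45, adjusted p = 0.00448). In monocyte-like cells Pou3f1, a POU domain transcription factor, lay between 0.813 and 2.72 CPM at 4 h and between 0 and 0.295 CPM otherwise (3.19 ± 0.57, adjusted p = 0.0107), and Matn4, a matrilin, between 0.925 and 1.80 CPM and between 0.0625 and 0.221 CPM (3.16 ± 0.43, adjusted p = 0.00402). The count filter was set on the hour groups. Genes near 0 at 0 h or 24 h, such as Pou3f1, Matn4, Prune2 and Chrdl2, could thus enter through the 4 h libraries alone. They were also picked for large rises, so their differences and adjusted p-values are a description of picked genes. The uncharacterised locus LOC120094738 was higher in all 9 classes, by 2.34 to 2.88 on the log2 scale, and LOC120102096 was lower in all 9, by 3.22 to 7.48.

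**Figure D5:**
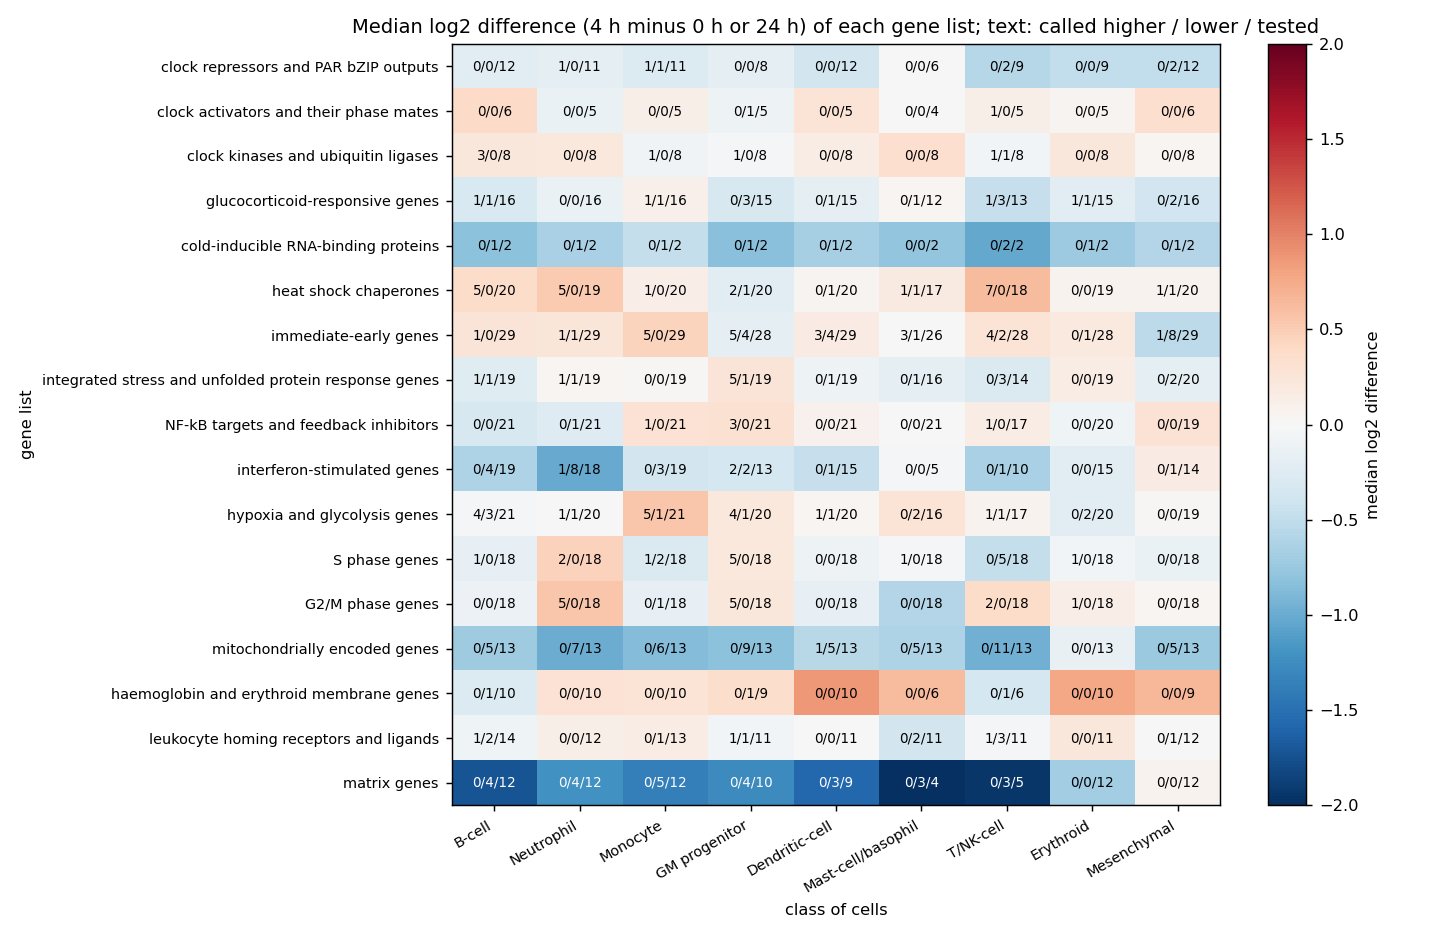
Median log2 difference (colour) of 17 gene lists in 9 classes, with the number of genes called higher, called lower and tested in each cell. Matrix genes read 0/4/12 in B-cell-like and 0/0/12 in mesenchymal-like cells, and chaperones 5/0/20 in B-cell-like, 5/0/19 in neutrophil-like and 7/0/18 in T/NK-cell-like cells. Chaperones also read 1/0/20 in monocyte-like, 0/1/20 in dendritic-cell-like and 0/0/19 in erythroid-like cells.

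Of the receptors and ligands that guide leukocytes between marrow and blood, 1 was higher and 2 lower of 14 in B-cell-like, none was called of 12 in neutrophil-like, 1 was lower of 13 in monocyte-like and 1 was higher and 3 lower of 11 in T/NK-cell-like cells. The shares of all genes called there are given above. Selplg, the ligand of P-selectin, stood at 54.7, 57.5, 63.5 and 59.3 CPM in monocyte-like cells against 78.1, 81.0, 73.7 and 106 CPM (−0.50 ± 0.11, adjusted p = 0.0187). The groups did not overlap, and the call was lost without TO_2d_4h (adjusted p = 0.0526). Monocyte-like cells made up 12.7% ± 3.57 (SD, n = 4) of cells at 4 h and 7.76% ± 1.65 (SD, n = 4) otherwise, with every 4 h library above every other (two-sided exact permutation p = 0.0286, the smallest that 4 against 4 allows, adjusted p = 0.286 over 10 classes). With finer clusters, at a Leiden resolution of 2, the groups overlapped, the lowest 4 h library at 8.68% and the highest other at 8.78% (exact permutation p = 0.0571). The shares of the other 9 classes gave exact permutation p values of 0.2 or more. Shares are relative, so more monocyte-like cells and fewer others cannot be told apart.

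Whether the difference by hour changed with the arm or the day was tested as an interaction. No gene was called for the arm in B-cell-like, neutrophil-like or monocyte-like cells by edgeR, with 483, 537 and 999 genes at an unadjusted p under 0.05. For the day, Ube2s-ps3, a pseudogene of a ubiquitin-conjugating enzyme, was called in B-cell-like cells (−4.87), and none was called in the other 2 classes, with 776, 583 and 465 genes at an unadjusted p under 0.05. Without TOE_2d_24h more genes were called for the arm in each of these classes. The same held for the day without TO_4d_24h. In both fits TOE_4d_24h, which stood apart in its clusters, was the only 0 h or 24 h library left in its arm or day. These calls therefore rest on that library. Between classes, the difference by hour was called for 800 of 17786 genes (4.5%) between B-cell-like and neutrophil-like cells, 106 of 18285 (0.58%) between B-cell-like and monocyte-like cells and 679 of 15115 (4.49%) between neutrophil-like and monocyte-like cells. Pfkfb4, Irf7 and Errfi1 were among those called between neutrophil-like and monocyte-like cells, with differences of −1.64, −1.20 and −0.96.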

How the data were processed

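The authors deposited 10x matrices of raw UMI counts per gene and barcode, 1 for each of the 8 libraries analysed here, with 41801 genes listed. The submitters' processing notes name Cell Ranger 9.0.0, R 4.0.3, Seurat and the builds mRatBN7.2 and GRCh38, without saying which build was used where. Filtering removed barcodes under 200 genes or over 20% mitochondrial UMIs and doublets by Scrublet score (8% expected, cut at 0.25). Cells were clustered with scanpy 1.11.5 (2000 variable genes, 30 components, 15 neighbours, Leiden resolution 1). Clusters were named where at least 3 markers of a class were raised. They stayed unnamed where another class had more markers among their 10 leading genes. So did clusters of low UMI count with no marker of the class among those 10. These rules were settled after the clusters had been seen. Names end in -like for that reason.

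UMIs were summed per library and class where every library held at least 20 cells, and 4 libraries were compared with 4 by edgeR 4.0.16 (TMM, filterByExpr, quasi-likelihood test) in R 4.3.3, with Benjamini-Hochberg adjustment and a threshold of 0.05. Log2 differences are 4 h minus 0 h or 24 h. Shares of cells were compared by exact permutation over 70 splits. Intervals between cells were not used, since cells are not replicates. The steps were tested on simulated data. Of 100 simulated 2-fold changes, 38 were recovered in B-cell-like, 33 in neutrophil-like and 49 in monocyte-like cells. Of 100 simulated 4-fold changes, 89, 92 and 91 were recovered. Genes not called may therefore still differ. Alternatives were DESeq2 1.42.0, other scalings and filters, arm, day and pair terms, subsets, other cell filters and cluster resolutions, and leaving out each library. Without TOE_4d_24h, the interactions between classes and the gene lists were refitted after seeing the data, as were the other classes and the interactions with arm and day without each library in turn.

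The members of the 17 gene lists and the comparison were chosen with earlier results of these data known. Genes named are the clock genes, the 8 highest and 8 lowest called genes without overlap in each of the 3 largest classes, the 12 genes called in most classes, the 4 members of each other list with the smallest adjusted p, and markers of other classes. Those given in full, and genes such as Rbm3, Fos, Klf2, Pabpc1 and Bmal1, were picked among these and the lists after their values were seen, as were the symbol groups. Promoter letters come from RefSeq on GRCr8, 250 bases before each start, with 33469 promoters in the table. Results for some list members are not reported here.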

Additional observations from a re-analysis of the deposited data

Results flagged for a closer look

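Within groups of 4 libraries, 1 library lay far from the other 3 in 10 of 130 groups checked, and chance alone marks about 1 in 20. The genes were Eef1a1 in B-cell-like cells (629.7 CPM in TOE_4d_24h, against 512 to 529.7), Hspa1b in neutrophil-like cells (15.9 CPM in TO_2d_0h, against 25 to 26.1) and Oasl2 in B-cell-like cells (3.97 CPM in TO_2d_4h, against 6.79 to 7.21). The others were Nr4a3 in monocyte-like cells (46.0 CPM in TOE_2d_4h, against 69.7 to 71.9), Nfkbia in monocyte-like cells (425 CPM in TOE_4d_24h, against 1217 to 1375) and ND4L in neutrophil-like cells (19.0 CPM in TO_2d_4h, against 9.32 to 10.6). For shares of cells, macrophage-like cells made up 0.761% in TOE_4d_4h, against 0.341% to 0.402%, and 0.0916% in TOE_4d_24h, against 0.673% to 0.691%. Mast-cell/basophil-like cells made up 1.09% in TO_4d_4h, against 0.476% to 0.555%, and mesenchymal-like cells 8.45% in TOE_2d_24h, against 0.874% to 2.01%. Of the latter cells in TOE_2d_24h, 708 of 1210 came from the cluster of low UMI count described above.

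For some genes the difference by hour was tested to differ between classes, given as the difference of the log2 differences. Between B-cell-like and neutrophil-like cells it was −1.46 for Asns, 0.95 for Atf3, 1.57 for Ccl4, −0.55 for Col1a1, 1.13 for Irf7, 1.33 for Isg15, 0.93 for ND4L, 0.88 for Ndrg1, −1.61 for Oas1a, 2.17 for Reln and 1.79 for Rsad2. Between B-cell-like and monocyte-like cells it was −0.85 for Dbp and 4.39 for Reln. Between neutrophil-like and monocyte-like cells it was −0.96 for Errfi1, 1.95 for Hspa1b, −1.20 for Irf7, −0.97 for ND4L, 1.48 for Per3, −1.64 for Pfkfb4 and 2.18 for Reln. Between day 4 and day 2 it was −4.87 for Ube2s-ps3 in B-cell-like cells. All had an adjusted p under 0.05 by edgeR.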

How the results depend on the processing

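The number of called genes depended on the libraries used. With the arm-day pair as a block, calls were 1179 in B-cell-like, 584 in neutrophil-like and 669 in monocyte-like cells, 17 with all cells summed and 1 among clock genes. Within the TO arm the counts were 5876, 733, 4256 with all cells summed and 9 clock genes. Within the TOE arm edgeR called 0 genes in the 3 classes, with all cells summed and among clock genes, with 1278 genes at an unadjusted p under 0.05 and 226 DESeq2 calls for all cells. Day 2 alone gave 1077, 206, 189, 15 and 0. Day 4 alone gave 1, 3, 0, 0 and 0, with 1506 monocyte-like and 3533 all-cell genes at an unadjusted p under 0.05 and 304 and 1363 DESeq2 calls. DESeq2 called 2062 neutrophil-like, 2917 monocyte-like and 3519 all-cell genes. Arm and day as additive terms left 417 all-cell calls. Cells without a cycling marker UMI left 534 neutrophil-like and 573 monocyte-like calls, and turned Mcm4 (−0.11), Cenpe (−0.53) and Hmmr (−0.32). The cause of these shifts was not tested.

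Leaving out 1 library gave 1704 to 6442 calls in B-cell-like, 538 to 2612 in neutrophil-like, 727 to 3521 in monocyte-like, 315 to 2561 in dendritic-cell-like, 31 to 2125 in erythroid-like, 1431 to 2648 in progenitor-like, 303 to 977 in mast-cell/basophil-like, 16 to 638 in mesenchymal-like and 716 to 1891 in T/NK-cell-like cells, 339 to 3995 with all cells summed and 2 to 17 among clock genes. The arm interaction gave 0 to 73, 0 to 588 and 0 to 1632, and the day interaction 0 to 51, 0 to 142 and 0 to 110. The highest arm counts came without TOE_2d_24h and the highest day counts without TO_4d_24h, so they rest on TOE_4d_24h as described above. Without TOE_4d_24h the class interactions gave 1570, 659 and 1061. Differences in share of cells ranged from −5.08 to 0.433 percentage points for B-cell-like, −5.87 to −0.390 for neutrophil-like, 3.19 to 5.84 for monocyte-like, −0.0583 to 0.157 for dendritic-cell-like, −0.113 to 1.62 for erythroid-like, −0.149 to 0.272 for progenitor-like, −0.209 to −0.00961 for macrophage-like, −0.401 to −0.170 for mast-cell/basophil-like, −2.65 to −0.119 for mesenchymal-like and −0.326 to 0.0682 for T/NK-cell-like cells. Of 127 called gene and class pairs among the 185 named, 93 were kept with the block, 75 within day 2 and 0 within the TOE arm. Within day 4, 126 of these pairs could be compared and 4 were kept.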
